A study of Mus musculus with 2 samples.

Results

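Classical monocytes were defined here by their RNA. A barcode counted as a member if it had at least 200 genes, at most 20% mitochondrial UMIs and at least 1000 UMIs, where a UMI (unique molecular identifier) marks 1 captured RNA molecule. It also needed at least 1 UMI of *Csf1r* and at least 3 UMIs in the sum of *Ccr2*, *Ly6c2*, *Vcan* and *F13a1*, with *Ccr2*, *Ly6c2* and *Vcan* together above the sum of the nonclassical genes *Adgre4*, *Pou2f2* and *Treml4*. Barcodes with 5 or more UMIs of the C1q genes, 2 or more of *Flt3*, *Ccl17* and *Cd209a*, 3 or more of *Marco*, *Ear1*, *Plet1* and *Atp6v0d2*, or 3 or more of *Retnlg*, *Cxcr2* and *Stfa2l1* were set aside as macrophages, dendritic cells, alveolar macrophages or neutrophils. The rule found 155 barcodes among 22315 kept cells, 8 in the Cebpa FF library and 147 in the Cebpa KO library.

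The scRNA-Seq experiment held 1 droplet library of lung cells per genotype. In Cebpa FF mice both *Cebpa* alleles are flanked by loxP sites and remain intact. In Cebpa KO mice a tamoxifen-inducible Cre driven by the *Sftpc* promoter is meant to delete them in alveolar type 2 (AT2) epithelial cells. The labels give only the genotypes, and the rest is from the methods: the Cebpa FF controls lack the Cre, mice were of mixed background and 3 months old unless stated otherwise, and lungs of both genotypes were taken 26 weeks after the first tamoxifen. Deletion was induced with 5 daily injections of 75 mg/kg, with a second, weekly round for analyses later than 3 months, and whether the Cebpa FF mice had the same injections is not said outright. Because this promoter acts in AT2 cells, the monocytes themselves were not the target of the deletion. The methods count 3 mice per genotype, the barcodes do not tell them apart, and the sources differ on whether cells were sorted before loading. Depth was alike in total, at 69200420 UMIs over 11721 barcodes in Cebpa FF and 64697396 UMIs over 13373 barcodes in Cebpa KO. The filters kept 10582 and 11733 barcodes, whose median depths were 5184 and 3428 UMIs. A total of 45 barcode sequences occurred in both libraries, none of them among the members. With 1 library per genotype there was no replicate check and no test between genotypes, and every interval given is a 95% interval that covers counting error only. A gene or list was called higher or lower between groups only as a 2-fold difference of summed levels.

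As a check of the labels, *Cebpa* was first read in AT2 barcodes, taken as cells with at least 200 of 10000 UMIs from AT2 markers, at least 3 UMIs of *Lamp3*, *Abca3* and *Slc34a2*, and no *Ptprc* UMI. The level was 152 CPM (UMIs of the gene scaled to a total of 1000000) in 465 Cebpa FF cells and 117 CPM in 232 Cebpa KO cells, a log2 ratio of -0.38 (-0.61 to -0.15). The 2 sets of AT2 cells differed widely in depth, with medians of 21217 and 1898.5 UMIs. The levels were thus within 2-fold and the transcript far from absent, and the check does not show the deletion. These barcodes were picked by AT2 marker RNA, so any cells that had lost it were not read. The paper itself reports reduced Cebpa in other lungs of this model by immunostaining, qPCR and Western blot. It also reports less Cebpa staining in lineage-traced AT2 cells. Whether the 3' tags counted lie within the deleted part is not given in the sources used here, and Cebpa KO stands throughout for the library labelled so.

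Classical monocytes leave the bone marrow through the chemokine receptor CCR2, circulate with high surface Ly6C, and enter inflamed tissue, where they can become macrophages or antigen-presenting cells. Nonclassical monocytes arise from them, lose CCR2 and Ly6C, depend on the factor NR4A1 and patrol the vessel wall. In the fibrotic lung, monocytes that enter from the blood are a known source of macrophages that supply growth factors and matrix to fibroblasts.

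Not all members had the RNA of a myeloid cell. *Tyrobp* and *Fcer1g*, which encode the adaptor proteins shared by myeloid receptors, gave a median of 50.1 of 10000 UMIs in the Cebpa FF and 54.8 in the Cebpa KO members, but were under 20 of 10000 in 2 Cebpa FF and 20 Cebpa KO barcodes. Markers of 1 epithelial, endothelial, mesenchymal, erythroid or lymphoid class reached 50 of 10000 UMIs in 2 Cebpa FF and 22 Cebpa KO barcodes. The class with the most UMIs in these was fibroblasts for both Cebpa FF barcodes, and in the Cebpa KO library endothelium for 10, fibroblasts for 6, T or NK cells for 3, AT2 cells for 2 and erythroid cells for 1. Both Cebpa FF barcodes had 0 UMIs of *Ptprc*, the pan-leukocyte gene CD45, and 0 of *Lyz2*, the lysozyme of monocytes and macrophages, and they met the rule only through 4 and 3 UMIs of *Vcan*, which fibroblasts also express. They held 32 and 66 UMIs of *Hhip* and 41 and 24 of *Aspn*, genes of alveolar duct myofibroblasts. In 5 Cebpa KO members all marker UMIs likewise came from *Vcan*. Results are therefore given for all members, for the core members, or for both, where the core members are the 6 Cebpa FF and 117 Cebpa KO barcodes with myeloid RNA and little RNA of other classes. The barcodes outside this core held 15.4% of the Cebpa FF and 18.8% of the Cebpa KO members' UMIs. *Lyz2* and *Ptprc*, which the rule and the core did not use, marked the core as myeloid cells but not as a kind of monocyte. After thinning to 1000 UMIs all 6 core Cebpa FF and 117 core Cebpa KO cells had a *Lyz2* UMI, against 11.6% and 30.6% of endothelial cells, and in Cebpa KO 94.5% of nonclassical monocytes and all C1q macrophages had one. A *Ptprc* UMI was left in 83.3% and 68.4% of the core, against 0.281% and 11.4% of endothelial cells gated without regard to *Ptprc*. The thinned endothelial shares given for all other genes come from endothelial cells without a *Ptprc* or *Csf1r* UMI. Barcodes with such leukocyte RNA were thus left out of that background, which may make it too low.

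**Figure D1:**
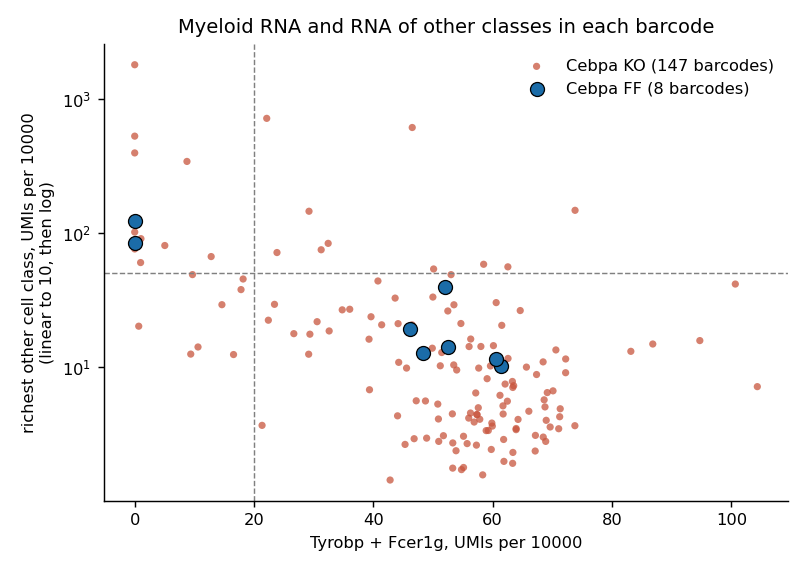
Each point is 1 member barcode, with the UMIs of *Tyrobp* and *Fcer1g* per 10000 on the x axis and the UMIs per 10000 of the richest other cell class on the y axis (linear to 10, then log), blue for Cebpa FF and red for Cebpa KO. Dashed lines mark 20 and 50 per 10000, and the core members are those right of the first line and under the second, 6 in Cebpa FF and 117 in Cebpa KO.

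The threshold of the rule cut through a range of cells with few marker UMIs. The median marker sum was 23 in both libraries, and 1 Cebpa FF and 16 Cebpa KO members had exactly 3. Just inside, the Cebpa KO members with 3 marker UMIs had a median of 3139 UMIs, 33.6 of 10000 UMIs from *Tyrobp* and *Fcer1g*, and 72.4 from *Lyz2*. Just outside, 26 Cebpa KO barcodes with 2 marker UMIs had medians of 2661, 13.7 and 23.5, so myeloid RNA was scarcer on that side of the line in this library. In the Cebpa FF library the single member with 3 marker UMIs had 3913 UMIs and none of *Lyz2*, whereas the 3 barcodes just outside had medians of 21404 UMIs and 82.8 of 10000 from *Lyz2*, the opposite order. Both sides had a median of 0 for *Tyrobp* and *Fcer1g*.

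Classical monocytes were a small share of both libraries and a larger one in Cebpa KO. They made up 0.0756% of kept cells in Cebpa FF (8 of 10582, exact binomial interval 0.0326 to 0.149%) and 1.25% in Cebpa KO (147 of 11733, 1.06 to 1.47%), a ratio of 16.6 (8.19 to 39.1). The core members gave 0.0567% and 0.997%, a ratio of 17.6 (7.84 to 48.9). Other cells with leukocyte RNA were more common as well. Cells with a *Ptprc* UMI were 1.81% of the Cebpa FF and 33.1% of the Cebpa KO library, and among them classical monocytes were 3.13% in Cebpa FF (6 of 192, 1.16 to 6.68%) and 3.42% in Cebpa KO (133 of 3888, 2.87 to 4.04%), a log2 ratio of 0.13 (-1.03 to 1.60). For the core members the shares were 3.13% and 2.88%, a log2 ratio of -0.12 (-1.28 to 1.36). A single *Ptprc* UMI does not make a leukocyte, since 22.7% of 7958 endothelial cells in Cebpa KO and 0.908% of 7821 in Cebpa FF had one. With at least 3 *Ptprc* UMIs, which 4.54% and 0.217% of endothelial cells had, the shares were 5.32% in Cebpa FF (5 of 94, 1.75 to 11.98%) and 6.45% in Cebpa KO (108 of 1675, 5.32 to 7.73%), a log2 ratio of 0.28 (-0.99 to 1.93), and 0.077 (-1.20 to 1.73) in the core. Over these denominators a difference was not detectable at this depth, though the intervals reach past 2-fold. An unlike recovery or sort of leukocytes and a change in the tissue cannot be told apart here.

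The other myeloid populations, taken with gates of the same kind, were set beside them. Core nonclassical monocytes, gated on at least 2 UMIs of their genes, numbered 11 in Cebpa FF and 127 in Cebpa KO, a ratio of shares of 10.4 (5.63 to 21.4), core C1q macrophages 14 and 41, a ratio of 2.64 (1.41 to 5.25), and core neutrophils 5 and 370, a ratio of 66.7 (28.3 to 207). Over all gated cells the ratios were 14.7 (8.20 to 28.9) for nonclassical monocytes, 4.62 (2.72 to 8.28) for C1q macrophages (17 and 87 cells) and 85.8 (41.4 to 214) for neutrophils. Of core monocytes of both kinds, the classical ones were 35.3% in Cebpa FF (14.2 to 61.7%) and 48.0% in Cebpa KO (41.5 to 54.4%), intervals that overlap. Of classical monocytes and C1q macrophages together they were 30.0% (11.9 to 54.3%) and 74.1% (66.5 to 80.7%), which do not overlap (32.0% and 62.8% over all gated cells), and of classical monocytes and neutrophils 54.5% (23.4 to 83.3%) and 24.0% (20.3 to 28.1%), which overlap. Over all gated cells the latter were 53.3% (26.6 to 78.7%) and 18.1% (15.5 to 20.9%), which do not.

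**Figure D2:**
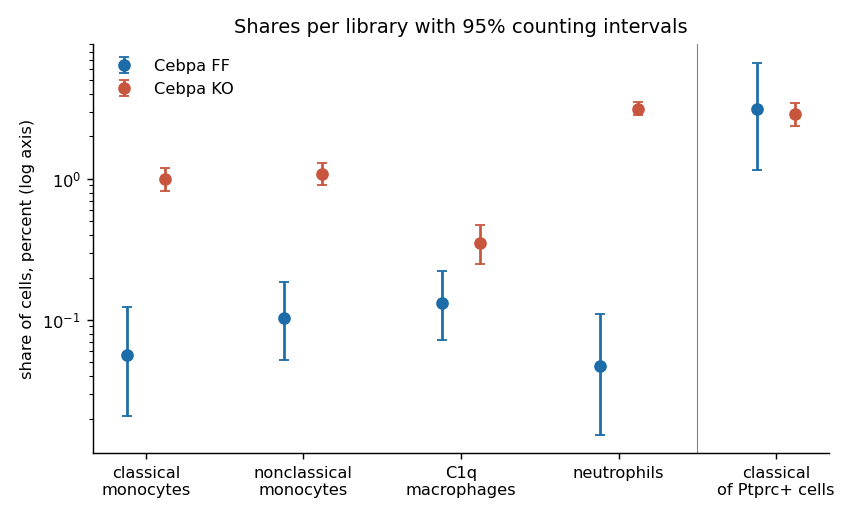
Points give the share of kept cells that are core members of each myeloid population in the Cebpa FF (blue) and Cebpa KO (red) library on a log axis, and at the right the share of core classical monocytes among cells with a *Ptprc* UMI; bars are exact 95% binomial intervals. All 4 populations are larger shares of the Cebpa KO library, whereas the shares at the right, 3.13% and 2.88%, lie side by side.

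The genes of the rule describe the members and are no finding. In mm10, *Ccr2* lies at chr9:124101950-124113557 on the plus strand, *Ly6c2* at chr15:75108158-75111970, *F13a1* at chr13:36867178-37050244 and *Vcan* at chr13:89655312-89742509, the last 3 on the minus strand. *Ccr2* had 9, 12, 13, 3, 4 and 7 UMIs in the 6 core Cebpa FF cells, 727 CPM in sum, and 1102 CPM in Cebpa KO, where 113 of 117 cells had it. *Ly6c2*, a GPI-anchored antigen of the Ly6 family, had 4, 12, 13, 13, 10 and 1 UMIs, 803 CPM against 1153 CPM. *F13a1*, the A chain of coagulation factor XIII, had 17, 19, 17, 4, 12 and 6 UMIs, 1136 CPM against 903 CPM. These genes were found in nearly every core cell of both libraries. *Vcan*, the matrix proteoglycan versican, was patchy, with 1, 3, 12, 0, 0 and 0 UMIs in Cebpa FF and no UMI in 71 of 117 Cebpa KO cells. Only 3 Cebpa FF and 45 Cebpa KO core cells held all 4 marker genes. After each cell was thinned to 1000 UMIs, 64.1% of Cebpa KO core cells had a *Ccr2* UMI, 64.1% *Ly6c2*, 55.6% *F13a1* and 8.55% *Vcan*. The 6153 endothelial cells, chosen without a *Ptprc* or *Csf1r* UMI, should lack the first 3 and gave 1.12%, 1.15% and 1.02%. *Ly6c1*, a near copy of *Ly6c2* that lung endothelium expresses, shares 94.8% of the last 400 bases of its transcript with it, and 10.97% of the 91-base windows there are identical. It was found in 65.8% of thinned Cebpa KO endothelial cells and in 7.69% of core members, where 64.1% had *Ly6c2*. Before thinning, 33.3% of core Cebpa FF and 29.9% of core Cebpa KO cells had a *Ly6c1* UMI.

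The DNA just before the start sites of *Ly6c2* and *F13a1* is shown because the myeloid factor PU.1 is known to act at such sites in monocyte genes. Each line gives the 250 bases up to the first RefSeq start site in GRCm38.p6, 5' to 3' on the gene's strand, with matches to the PU.1-type word GAGGAAG, searched on both strands, in capitals.
Ly6c2, chr15:75111972-75112221, minus strand: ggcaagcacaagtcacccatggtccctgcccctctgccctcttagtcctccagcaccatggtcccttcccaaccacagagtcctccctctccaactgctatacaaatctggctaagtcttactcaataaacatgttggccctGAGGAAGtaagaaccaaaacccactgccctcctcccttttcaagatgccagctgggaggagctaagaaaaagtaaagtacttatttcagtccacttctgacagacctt
F13a1, chr13:37050245-37050494, minus strand: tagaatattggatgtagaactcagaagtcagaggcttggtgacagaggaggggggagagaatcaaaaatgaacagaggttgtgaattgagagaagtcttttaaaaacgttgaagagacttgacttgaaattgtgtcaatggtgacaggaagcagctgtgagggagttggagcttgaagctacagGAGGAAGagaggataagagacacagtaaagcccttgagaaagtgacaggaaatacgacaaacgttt
Both windows held 1 match. The second start site listed for *Ly6c2* had 2 matches and that of *F13a1* none, and *Ccr2* and *Vcan* had none. The word occurs in 10.6% of 32851 windows of 250 bases before RefSeq start sites. The C/EBP-type word TTGCNNAA, found in 9.56% of all windows, was in none of the windows of the 4 marker genes. A match describes the letters only.

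*Cebpa* itself, which encodes the factor C/EBP-alpha needed to form monocytes and granulocytes, was found in the members of both libraries. After thinning to 1000 UMIs, 16.7% of core Cebpa FF and 19.7% of core Cebpa KO cells had a UMI of it, against 1.51% and 2.19% of endothelial cells. It had 10, 1, 3, 1, 2 and 3 UMIs in the core Cebpa FF cells, 303 CPM, and 217 UMIs in 79 of 117 core Cebpa KO cells, 178 CPM. The log2 ratio of -0.76 (-1.43 to -0.02) rested in part on 1 Cebpa FF cell with 10 of the 20 UMIs. Core classical monocytes of the Cebpa KO library held more of it than nonclassical monocytes (65.3 CPM) or neutrophils (40.4 CPM) and about as much as C1q macrophages (194 CPM). Other factors of the myeloid lineage were close between the genotypes. *Cebpb* had 2363 and 2007 CPM, *Spi1*, the gene of PU.1, 560 and 509 CPM, and *Nr4a1* 591 and 570 CPM. *Klf4*, which acts in the making of Ly6C-high monocytes, had 939 and 654 CPM, a log2 ratio of -0.52 (-0.90 to -0.13). Of 17 factors on the list compared in the core, *Zeb2* was past 2-fold, where 3.67% of all compared core genes were higher and 3.61% lower by as much, with 348 and 757 CPM (log2 1.12, 0.53 to 1.78), and the median was -0.05. Over all members *Id2* and not *Zeb2* was past 2-fold, higher in Cebpa KO, of 18 compared, where 3.68% of all compared genes were higher. The call thus depends on which barcodes are kept.

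Between genotypes, 1547 genes with a mean of at least 100 CPM were compared over all members, and 57 (3.68%) were at least 2-fold higher and 66 (4.27%) at least 2-fold lower in Cebpa KO, about a median log2 ratio of -0.08. When each cell weighed the same, the counts were 79 higher and 141 lower, and when each was thinned to 1000 UMIs they were 16 and 111. After thinning, the few Cebpa FF barcodes hold so few UMIs that the floor limits calls of higher genes far more than of lower ones. Nothing is therefore read from the split of the thinned counts. In the core, 55 (3.67%) of 1497 were higher and 54 (3.61%) lower, about a median of -0.11. At 100 CPM a gene had only 6.602 UMIs in the core Cebpa FF cells, against 121.6 in Cebpa KO, so 1 UMI in Cebpa FF moves such a ratio visibly. The minimum is a mean of both libraries, so a gene can pass it through the library where it is high. None of the 80 ribosomal protein genes was past 2-fold in either set. Of 12 mitochondrial genes, *mt-Atp8* was, with 106 and 262 CPM in the core.

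Over all members, the genes with the largest differences traced mostly to the barcodes outside the core. The 10 lowest in Cebpa KO were *Aspn*, *Ogn*, *Crispld2*, *Hhip*, *Fmo2*, *Prelp*, *Pcolce2*, *Gpx3*, *Mgp* and *Rarres2*, genes of fibroblasts and their matrix. Of their 573 UMIs in the Cebpa FF members, 94.6% lay in the 2 barcodes without myeloid RNA. The 10 highest were *Ccl5*, *AY036118*, *Scd1*, *Sftpb*, *Retnla*, *Sftpc*, *Slc34a2*, *Mcemp1*, *Ms4a4c* and *Ctla2a*. Of these, *Sftpb*, *Sftpc*, *Slc34a2* and *Scd1* are genes of AT2 cells, and a single Cebpa KO barcode held 60.3%, 79.9%, 64.8% and 74.4% of their UMIs. All 356 UMIs of *Retnla* lay in 1 barcode outside the core as well. *Ccl5*, a chemokine of T and NK cells, was found in 11 of 147 Cebpa KO members.

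Within the core, the 10 highest genes were *AY036118*, *Mcemp1*, *Ccl5*, *Tab2*, *Ms4a4c*, *Rnf213*, *Rassf3*, *Ms4a6d*, *Hspa5* and *Sgk1*. *Ms4a4c*, a membrane protein gene used as a marker of classical monocytes, had 1, 0, 3, 3, 1 and 0 UMIs in the Cebpa FF cells and a median of 3.96 of 10000 UMIs in Cebpa KO, 121 against 557 CPM (log2 2.20, 1.21 to 3.42). The highest Cebpa FF cell had 2.81 of 10000 and lay under the Cebpa KO median. *Hspa5*, the chaperone BiP of the endoplasmic reticulum, had 121 and 455 CPM in the core (log2 1.91, 0.92 to 3.13), but 295 and 472 CPM over all members. *Mcemp1*, a mast cell and myeloid membrane protein gene, had 2 UMIs in Cebpa FF and 272 UMIs in 80 of 117 Cebpa KO cells, a log2 ratio of 2.30 (0.74 to 4.59) with the Cebpa FF sum set to the floor of 3. *Tab2*, *Rnf213*, *Rassf3*, *Ms4a6d* and *Sgk1* had 2 or 3 UMIs in Cebpa FF and 170 to 210 CPM in Cebpa KO. *AY036118*, a transcript that overlaps ribosomal RNA, had 106 and 1079 CPM. *Ccl5* had 0 UMIs in Cebpa FF and came from 5 of 117 core Cebpa KO cells, 1 of which held 46.0% of its UMIs. Its sum was 4.76-fold the floor of 3 UMIs over the Cebpa FF cells (interval of the ratio from 0.69 on the log2 scale) but belonged to few cells. The 3 core cells with most of it held 107, 121 and 33 UMIs, and they had 22.4, 21.1 and 29.4 of 10000 UMIs from T or NK cell markers. Over the core that list summed to 15.1 CPM in Cebpa FF and 143 CPM in Cebpa KO, its part in the *Ccl5* difference was not tested, and *Il7r* was its most abundant gene.

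The lowest in the core were *Sftpc*, *Mgp*, *Vcl*, *Flot1*, *Cd74*, *Tpst2*, *Fkbp1a*, *H2-Eb1*, *Gsn* and *Rdx*. *Sftpc*, the AT2 surfactant gene that monocytes lack, was present as 8, 17, 7, 6, 5 and 3 UMIs in the Cebpa FF cells, 697 CPM against 63.3 CPM in Cebpa KO. After free RNA was subtracted from the core, the genes 2-fold apart by genotype in classical monocytes numbered 115, against 109 without it. *Mgp* and *Gsn* are genes of mesenchymal cells, and 15 of the 21 *Mgp* UMIs lay in the Cebpa FF cell with the most fibroblast RNA of the core, 39.7 of 10000 UMIs. Without that cell the log2 ratio was -1.11 for *Mgp* and -0.54 for *Gsn*. *Vcl* and *Rdx* encode vinculin and radixin, which tie the membrane to actin, and had 197 against 48.5 CPM and 257 against 92.9 CPM.

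MHC class II genes, whose products present antigen to CD4+ T cells, had lower sums in Cebpa KO, but this rested on 1 Cebpa FF cell. In the core, 4 of 6 compared members were at least 2-fold lower and none higher, with a median log2 ratio of -1.17 (over all members, 1 of 6 and -0.88), where 3.61% of all compared core genes were lower and the median was -0.11. *Cd74*, the invariant chain that escorts class II molecules, had 8, 1, 0, 112, 49 and 222 UMIs in the Cebpa FF cells. Its level was 5937 CPM there and 1973 CPM in Cebpa KO, a log2 ratio of -1.59 (-1.74 to -1.43). *H2-Aa* had 1, 0, 0, 36, 2 and 59 UMIs, 1484 against 598 CPM, *H2-Ab1* 1242 against 608 CPM and *H2-Eb1* 894 against 314 CPM. The Cebpa FF sums were carried by 2 of the 6 cells, and 3 cells had almost none. The richest of them, with 222 of 392 *Cd74* UMIs, was the cell nearest to the limit of the core, with 39.7 of 10000 UMIs from fibroblast markers and 1 *Ptprc* UMI. Without it, a comparison made after its values were seen, none of the 6 compared members was past 2-fold and the median was -0.10. *Cd74* then had 2858 against 1973 CPM (log2 -0.53, -0.76 to -0.30), *H2-Aa* 656 against 598 CPM and *H2-Eb1* 269 against 314 CPM. *H2-DMa* and *H2-DMb1*, which load peptides, had 379 against 315 CPM and 288 against 174 CPM, within 2-fold. Summed over the list, class II RNA was 15.0, 1.68, 1.69, 198, 55.7 and 584 of 10000 UMIs in the Cebpa FF cells, and in the 117 Cebpa KO cells it ran from 0 over a median of 10.2 to 539. The ranges overlap nearly whole. At 100 of 10000 or more stood 2 of 6 Cebpa FF cells and 14 of 117 (11.97%) Cebpa KO cells.

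**Figure D3:**
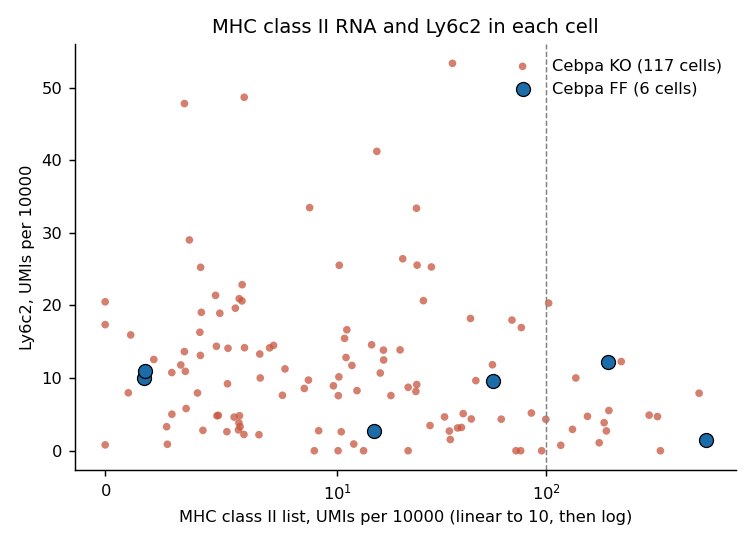
Each point is 1 core cell, with the UMIs of the MHC class II list per 10000 on the x axis (linear to 10, then log) and *Ly6c2* per 10000 on the y axis, blue for Cebpa FF and red for Cebpa KO; the dashed line marks 100 per 10000. Of the 6 Cebpa FF cells 2 lie right of the line and 3 lie at 15.0 or less, within the cloud of Cebpa KO cells.

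The class II-rich Cebpa KO cells were also described by genes outside the class II list. This class is a range cut from a score, with 18 cells between 50 and 200 of 10000. The 14 cells had a median of 10417 UMIs and the 103 others 11446. *Ly6c2* had 616 CPM in the 14 cells and 1236 CPM in the rest, *Fn1* (fibronectin) 812 and 1832 CPM, and *Chil3*, a chitinase-like protein of Ly6C-high monocytes, 641 and 1556 CPM. *Il1b*, the gene of interleukin-1 beta, had 1117 and 392 CPM and *Apoe* 3979 and 1910 CPM. *Ccr2* was about level at 1202 and 1087 CPM. *Ly6c2* and *Ccr2* are parts of the sum that chose every member, so nothing is read from their levels here or their correlations below. Of the genes that define dendritic cells and C1q macrophages, the 14 cells had 2 UMIs of *Flt3*, 0 of *Zbtb46*, 0 of *C1qa* and 0 of *Mrc1*, where *Flt3* and *C1qa* were limited by the rule. They also had 16 UMIs of *Batf3* (97.6 against 62.7 CPM) and 8 of *Itgax* (48.8 CPM, with 1 UMI in the rest). Over the 117 core Cebpa KO cells, which share 1 library and in which both measures are parts of the same total, Spearman's rho with the class II sum was 0.34 for *Apoe*, -0.34 for *Hp* (haptoglobin), -0.28 for *Fn1*, -0.24 for *Ly6c2* and -0.02 for *Ccr2*.

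Genes of the interferon response differed little in sum, at 9285 CPM in Cebpa FF and 11850 CPM in Cebpa KO over the core (log2 0.35, 0.24 to 0.47). Of 27 measured members 18 were too scarce to compare in the core. Of the other 9, *Isg15*, *Irf7*, *Ifi204* and *Bst2* were at least 2-fold higher and none lower, with a median of 0.94 (over all members 6 of 10 and 1.14), where 3.67% of all compared core genes were higher and the median was -0.11. *Isg15* and *Irf7*, at 75.7 and 90.9 CPM in Cebpa FF, reached the minimum of 100 CPM only through their Cebpa KO level, so the count and median are a description and no sign that the list as a whole was higher. *Isg15*, a ubiquitin-like modifier, had 0, 0, 0, 4, 1 and 0 UMIs in the Cebpa FF cells and was found in 56 of 117 Cebpa KO cells, 75.7 against 271 CPM (log2 1.84, 0.60 to 3.47). A single Cebpa KO cell held 27.0% of its UMIs. *Ifi204*, a DNA sensor, had 0, 0, 4, 2, 2 and 0 UMIs, 121 against 330 CPM (log2 1.44, 0.45 to 2.67), and *Bst2* (tetherin) 3, 1, 0, 1, 3 and 0 UMIs, 121 against 261 CPM (log2 1.10, 0.11 to 2.33). *Irf7*, the factor that amplifies type I interferon, had 5 of its 6 Cebpa FF UMIs in 1 cell, and its log2 ratio of 1.06 (-0.09 to 2.52) spanned 0. These are genes with 5 to 8 UMIs in Cebpa FF. The abundant members were close. *Ifitm3*, which blocks virus entry, had 4014 and 4529 CPM, *Ly6e* 1545 and 1542 CPM, *Ifitm2* 1560 and 1381 CPM, and *Ifi27l2a* 1212 and 1624 CPM. Per cell, the list summed to a median of 76.4 of 10000 UMIs (63.5 to 149) in Cebpa FF and 103 (42.0 to 390) in Cebpa KO, and every Cebpa FF cell lay inside the Cebpa KO range. *Ly6a*, which endothelial cells also express, was past 2-fold over all members (64.0 against 236 CPM) but had 75.7 and 65.8 CPM in the core. Of 7 compared class I genes, *Psmb8*, a subunit of the immunoproteasome, was past 2-fold in the core with 197 and 456 CPM (log2 1.21, 0.43 to 2.13), and *H2-K1* had 621 and 1099 CPM.

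Matrix and repair genes were followed by a list of 25, of which 19 were too scarce to compare in the core. No compared member of the profibrotic and repair list was past 2-fold, of 6 in the core (median -0.02) and 8 over all members (median 0.01). Of all compared core genes 3.67% were higher and 3.61% lower (3.68% and 4.27% over all members). At such shares a short list can hold few such genes or none. Neither this count nor those that follow in this paragraph set a list apart. *Fn1* had 1575 and 1694 CPM, *Thbs1*, which activates TGF-beta, 848 and 1050 CPM, *Tgfb1* 515 and 454 CPM, *Tgfbi* 409 and 561 CPM, and *Lgals3* (galectin-3) 1999 and 1810 CPM. *Timp1* had 0 UMIs in the core cells of both libraries. Of 26 cytokines and chemokines 7 were compared, of which *Ccl5* alone, described above, was past 2-fold, while *Ccl6* had 1121 and 889 CPM, *Il1b* 379 and 490 CPM, and *Ccl9* 348 and 434 CPM. Among receptors, *Cx3cr1* had 288 and 355 CPM and *Cxcr4* 182 and 154 CPM, while *Csf2ra*, a chain of the GM-CSF receptor, had 636 and 321 CPM (log2 -0.98, -1.45 to -0.49). *Tnfrsf1b*, TNF receptor 2, was past 2-fold at 90.9 and 222 CPM (log2 1.29, 0.15 to 2.75). No compared member of the coagulation, adhesion, lysosome, phagocytic receptor, glycolysis, antioxidant or S100 lists was past 2-fold in either set. Of 3 compared granule genes *Cd177* was lower by as much in both sets. Of 14 compared immediate early and heat shock genes *Jun* was higher in the core. *Scgb1a1*, the 1 airway secretory gene compared, was higher in both sets. *Lyz2*, the most abundant marker, had 25006 and 29007 CPM, *Plac8* 2363 and 3086 CPM, and *S100a4* 1666 and 2911 CPM.

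*S100a8* and *S100a9*, which encode calprotectin and are abundant in neutrophils, were scarce in the members. The core Cebpa FF cells had 0 UMIs of both, which allows up to 45.4 CPM. The core Cebpa KO cells had 96 UMIs of *S100a8*, 78.9 CPM, and 147 of *S100a9*, 121 CPM, against 45584 and 50822 CPM in core neutrophils of that library. After thinning to 1000 UMIs, 7.69% and 12.8% of core Cebpa KO members had a UMI, whereas endothelial cells, which should lack both genes, gave 14.3% and 16.8%. The shares in monocytes were not above that background. A single core cell held 311 of 10000 UMIs of both genes, and 43 of 117 held none.

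**Figure D4:**
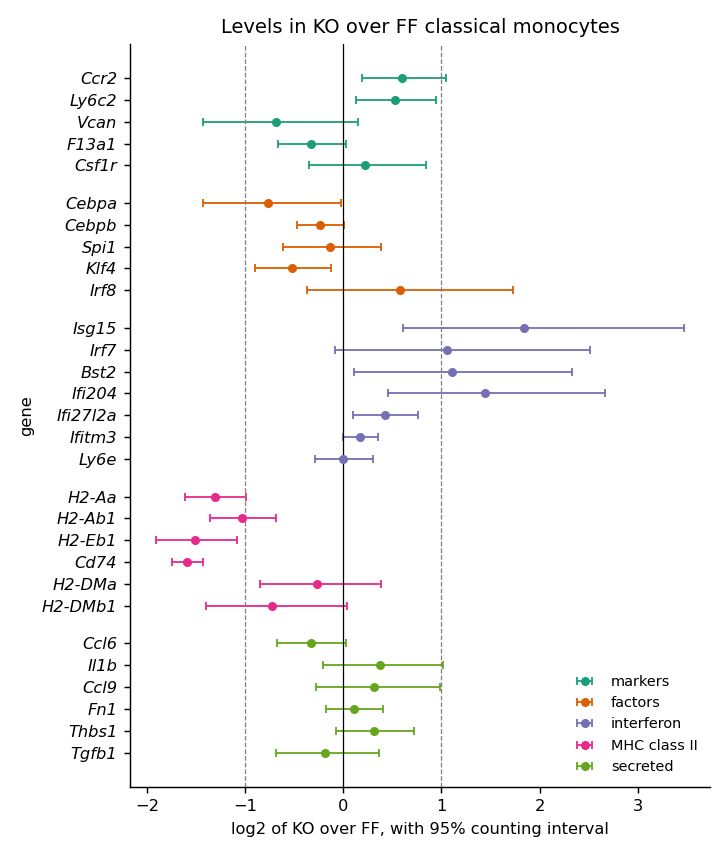
Points are log2 ratios of summed core levels, Cebpa KO over Cebpa FF, for markers, factors, interferon, MHC class II and secreted genes, and bars are exact 95% counting intervals; the dashed lines mark 2-fold. The marker genes of the rule and the secreted genes shown lie within 2-fold, *Cd74* at -1.59 and *H2-Eb1* at -1.51 lie lowest, which rests on 1 Cebpa FF cell (-0.53 and 0.22 without it), and *Isg15* at 1.84 lies highest of the genes shown. *Ms4a4c*, another marker, is not drawn.

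The genes that varied most among all members were largely those of other cell types. After each Cebpa KO member was thinned to 1000 UMIs, 71 of 3097 genes (2.29%) had a variance of at least 2 times the mean. The 10 with the highest ratio were *Sftpc*, *Hbb-bs*, *Acta2*, *Tpm2*, *Sftpa1*, *Malat1*, *Gsn*, *Dcn*, *Mgp* and *Mmp3*, nearly all genes of AT2, erythroid, muscle or fibroblast cells. In the core 26 of 3182 genes (0.817%) were past that ratio, led by *S100a9* (9.54), *Malat1* (8.31), *Cd74* (7.24), *Cxcl10* (7.20), *H2-Aa* (5.94), *Lyz2* (4.78), *S100a8* (4.47), *Chil3* (4.04), *H2-Eb1* (3.93) and *Ccl5* (3.84). The median gene had 0.957, near the value of 1 that counting alone gives. Before thinning, *Cxcl10* came from 9 of 117 cells and *Ccl5* from 5, while *Chil3* was in 96 and *Cd74* in 95. Both of the latter were also found in endothelial cells of that library, *Chil3* in 16.4% and *Cd74* in 53.1% after thinning, against 47.0% and 51.3% of the core. *Chil3* was uneven in Cebpa FF as well, where 1 cell held 90 of 133 UMIs and 2 cells held none. Across the core Cebpa KO cells, Spearman's rho of *Ly6c2* was 0.30 with *Plac8*, 0.27 with *Chil3*, -0.07 with *Ccr2* and -0.01 with *F13a1*. *Ly6c2*, *Ccr2* and *F13a1* are parts of the sum that chose the cells, which bears on the last 2 values, and nothing is read from them.

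Classical and nonclassical monocytes were then compared within each library, which keeps genotype and library apart from the contrast. The genes of both gates were left out. Over all members, 34 (2.41%) of 1408 genes were at least 2-fold higher and 84 (5.97%) at least 2-fold lower in classical monocytes in both libraries. In the core the counts were 40 (2.81%) and 90 (6.32%) of 1423. The 10 highest core genes, in order of the smaller of the 2 ratios, were *Capg*, *Slpi*, *Thbs1*, *Wfdc17*, *Fn1*, *Tmem176b*, *Iqgap2*, *Ifi30*, *Slfn5* and *Ifi203*. *Capg*, an actin-capping protein, had 364 against 41.2 CPM in Cebpa FF and 319 against 48.0 CPM in Cebpa KO. *Fn1* had 1575 against 371 and 1694 against 227 CPM, and *Thbs1* 848 against 27.4 and 1050 against 225 CPM. The secreted inhibitor *Slpi* had 273 against 13.7 and 218 against 39.3 CPM. Over all members, *Acta2* and *Dcn*, genes of muscle and fibroblasts, were also among the first 10.

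The 10 lowest were *Pglyrp1*, *Eno3*, *Cd300e*, *Dusp16*, *Cd300ld*, *Cd36*, *Bcl2a1b*, *Cd9*, *Pilra* and *Ear2*. *Cd300e*, an activating receptor of nonclassical monocytes, had 0 UMIs in the core classical cells of Cebpa FF and 5.75 CPM in those of Cebpa KO, against 494 and 357 CPM in nonclassical monocytes. *Pglyrp1*, a peptidoglycan-binding protein, had 30.3 against 590 and 34.5 against 518 CPM. Of the nonclassical markers on the list, 10 of 12 compared were at least 2-fold lower in both libraries, among them *Ace*, *Spn*, *Cx3cr1* and *Fcgr4*. Of the classical markers 6 of 13 were higher (*Chil3*, *Fn1*, *Hp*, *Mgst1*, *Lyz2* and *Thbs1*) and none lower. Over all compared core genes 2.81% were higher and 6.32% lower, which is also the background for the counts that follow. Among 17 compared factors, *Cebpa* and *Cebpd* were higher and *Id2* lower. Of 5 compared S100 genes, *S100a4*, *S100a6* and *S100a10* were higher in classical monocytes in both libraries. Of 6 compared class II genes, *H2-DMa* and *H2-DMb1* were at least 2-fold higher in both libraries. The summed class II level was 10254 against 1002 CPM in Cebpa FF, or 4960 CPM without the richest classical cell, and 4026 against 3041 CPM in Cebpa KO. Windows were read for 8 of these 10 highest genes, without *Thbs1* and *Fn1*, and GAGGAAG was in those of *Wfdc17*, *Iqgap2* and *Tmem176b* and TTGCNNAA in those of *Slpi* and *Ifi30*. Among the 10 lowest, GAGGAAG was in 4 of 10 windows and TTGCNNAA in 2. Over all windows before start sites the shares were 10.6% and 9.56%. *Tmem176b* was read in 3 windows and *Ifi203* in 2, which gives more room for a match. With so few genes nothing is read from these counts.

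**Figure D5:**
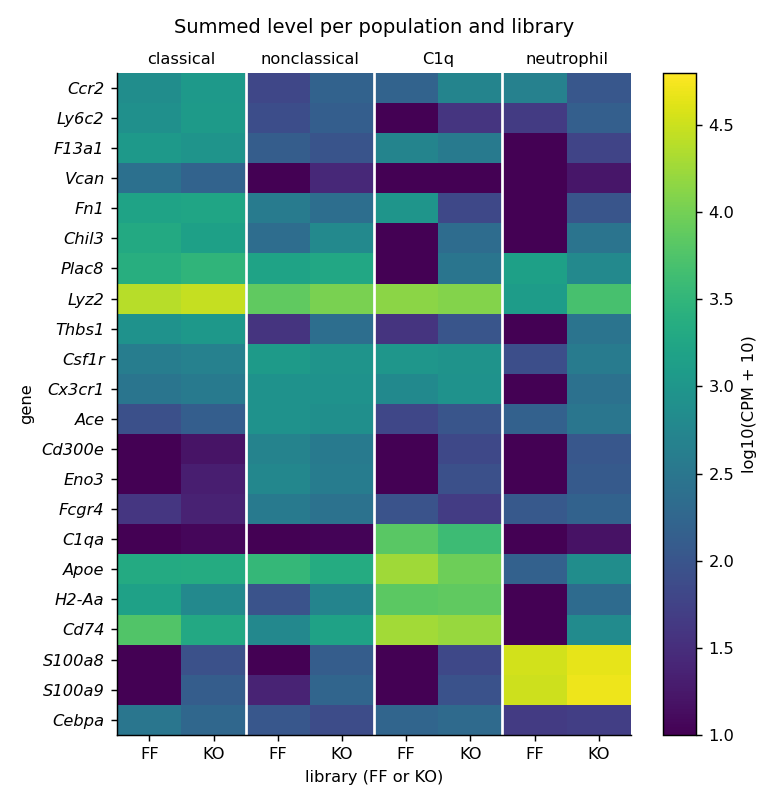
Colors give the log10 of summed CPM plus 10 of each gene in the core cells of classical monocytes, nonclassical monocytes, C1q macrophages and neutrophils, with the Cebpa FF and Cebpa KO library side by side. *Lyz2* is found in all 4 populations, classical monocytes are highest in *Lyz2*, *Chil3* and *Thbs1* in both libraries, with *Cd300e* and *Eno3* near 0, and *Csf1r*, a gene of the gates, is lowest in neutrophils.

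Against C1q macrophages, 92 (7.04%) of 1306 genes were at least 2-fold higher and 71 (5.44%) lower in all classical members in both libraries. In the core, 85 (6.91%) of 1230 genes were at least 2-fold higher and 73 (5.93%) lower in both libraries. The highest were *Hp* (485 against 27.4 CPM in Cebpa FF and 626 against 26.2 CPM in Cebpa KO), *Thbs1*, *Plac8* and *Ifitm6*, and the lowest were *Pf4*, *Cd81* and *Mrc1*, the mannose receptor of tissue macrophages, which had 0 CPM against 810 and 19.7 against 595 CPM. Against neutrophils, 95 (7.62%) of 1246 genes were higher and 103 (8.27%) lower over all members, and 135 (11.2%) and 104 (8.65%) of 1202 in the core. *Fn1*, *Ifi30*, *S100a4* and *Lyz2* led the higher genes, and *S100a8* and *S100a9* the lower ones, with log2 ratios of -9.17 and -8.72 in Cebpa KO. The Cebpa FF side of these contrasts rested on 14 macrophages and 5 neutrophils.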

How the data were processed

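Droplet-based 3' scRNA-Seq was run on 1 lung library per genotype. The authors aligned reads to mm10 with Cell Ranger (5.0.0 in the file headers, 6.1.1 per the labels) and deposited raw UMI counts per gene and barcode without normalization. The deposited barcodes equal the cells the paper counts, and its filter had not been applied to them. Here counts were summed over members and divided by all their UMIs (CPM). Log2 ratios used a floor of 3 counts and exact 95% conditional intervals, CPM exact Poisson intervals and shares Clopper-Pearson intervals. With 1 library per genotype no test was made. Doublets were kept. Members and gene lists were chosen with earlier results of these data known, and the core members after their values were seen. Genes named were drawn from the 10 largest ratios in each direction without mitochondrial, ribosomal protein and predicted genes, the 3 most abundant and the 2-fold members of each list, and the genes of the rule. Promoters came from RefSeq (GRCm38.p6), positions from GENCODE. Sums and intervals were made in Python 3.11.15 with scipy 1.17.1, numpy 2.4.6 and pandas 2.3.3, doublet scores with scanpy 1.11.5 and plots with matplotlib 3.10.9. Scripts were tested on simulated counts.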

Additional observations from a re-analysis of the deposited data

How the results depend on the processing

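The Cebpa FF side rests on 8 barcodes, or 6 core members, of 1 library, and many genes had fewer than 8 UMIs there. Differences between mice, libraries and genotypes cannot be told apart. No paired analysis was possible because there was 1 library per genotype. The core members, the *Ptprc* denominator for them, the minimum of 3 *Ptprc* UMIs, free RNA subtraction in the core and the core without its Cebpa FF cell richest in class II RNA were chosen after seeing the data.

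The log2 ratio of the share, 4.05, lay between 3.12 and 4.27 under the other filters, marker sums and denominators tried, and was 0.13 over cells with a *Ptprc* UMI and -0.12 for the core over these cells, and 0.28 and 0.077 over cells with 3 or more *Ptprc* UMIs. The lowest of that range were 3.12 with every excluded group at 0 and 3.17 with cells thinned before the rule. They rest on 1 Cebpa FF cell, against 29 and 30 in Cebpa KO. That count was raised to the floor of 3, so both values are smaller than the counts alone would give. The 123 genes 2-fold apart by genotype in classical monocytes became 214 when mitochondrial, ribosomal protein, hemoglobin, surfactant and secretoglobin genes were left out of the total, 457 at a minimum of 50 CPM, 30 at 200 CPM, 220 when each cell weighed the same and 674 after free RNA was subtracted from all members. That subtraction was set by surfactant UMIs, of which 1 AT2-rich barcode held most, and took away 95.7% of the Cebpa KO profile, so it says nothing on the genes; in the core it took 2.60% and 1.995% and gave 115. Cells thinned to 1000 UMIs gave 127, of which 16 were higher, a split shaped by the floor at the low Cebpa FF total. The 118 genes 2-fold apart between classical and nonclassical monocytes became 217 at 50 CPM. The variation among Cebpa KO classical monocytes, 2.29% of genes, was 2.96% at 2000 UMIs and 0.817% in the core. Among the 8 Cebpa FF members it was 6.72%, or 9.03% at 2000 UMIs and 5.54% in the core. With so few cells a gene with a few UMIs in a single cell can pass the ratio. The Cebpa FF shares are therefore not comparable with those of Cebpa KO.

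A direction turned for *Hhip* (1.14) and *Mgp* (0.18) at a marker sum of 5 or more, after the void subtraction for AY036118, log2 KO over FF (-4.35), Bst2, log2 KO over FF (-3.86) and Cd177, log2 KO over FF (0.43), and in the core for *Ly6a* (-0.20), *Sftpa1* (-2.20), *Sftpc* (-3.46) and the AT2 list (-2.20), which without the Cebpa FF cell richest in class II RNA were -0.35, -2.35, -3.51 and -2.35. List medians here are over the genes compared in all members, 5 for AT2, and over the 2 AT2 genes compared in the core itself the median was -1.62. Without that cell the class II list had a median of -0.10. Over all alternatives, these included, 1295 of 1486 gene values, 284 of 307 list medians and 113 of 125 classical to nonclassical ratios stayed within the counting interval of the reported value.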
